A study of Homo sapiens with 8 samples.

Results

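ES-2 cells, an established line derived from ovarian cancer, were compared with 3 other established tumor cell lines by small RNA-seq, a sequencing of short RNAs that reports miRNA abundance. The other lines were MV-3, derived from melanoma, Huh-7, derived from hepatocellular carcinoma, and A-549, derived from lung adenocarcinoma. Each line had 2 libraries, so that 2 of the 8 libraries were from ES-2. All lines were parental, with no transfection, drug or engineered allele, were kept in DMEM with serum, and were collected 48 h after seeding. Each tumor type was represented by 1 line, so line and tumor type cannot be told apart. miRNAs were selected for description where ES-2 was higher, or lower, than MV-3, Huh-7 and A-549 in each of the 3 pairs. Of 528 miRNAs tested, 35 were higher and 21 were lower in ES-2 than in every other line.

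miRNAs are small RNAs that guide Argonaute proteins to partly complementary sites in mRNAs and lower the stability or translation of these mRNAs. Target choice rests mostly on the seed, bases 2 to 8 of the mature strand, so that miRNAs with the same seed share many predicted targets even where they come from separate genes. A hairpin can give rise to a 5p and a 3p arm, and neighbouring hairpins are often cut from the same primary transcript. Vertebrate genomes hold several copies of some hairpin clusters, such as the clusters of let-7 with miR-99/100 and miR-125, and that of miR-23, miR-27 and miR-24.

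Libraries held 1173902 to 2670030 reads on mature miRNAs. Values are given as normalised CPM, which are counts per 1000000 miRNA reads scaled by TMM (trimmed mean of M values) factors of 0.848 to 0.866 in ES-2, 1.15 to 1.18 in MV-3 cells, 1.63 to 1.70 in Huh-7 cells and 0.593 to 0.608 in A-549. A count of 3 reads, used as the detection floor, was worth 0.845 to 2.45 normalised CPM. Paired values below are replicates 1 and 2 of a line. Libraries of a line differed by more than counting error, with a chi-square per degree of freedom of 8.53 in ES-2 and 8.91 to 15.6 in the other lines. The study calls the libraries biological replicates, and p values measure the spread between these libraries. Differences are log2 fold changes on the log2(normalised CPM + 1) scale with their standard errors (SE), and adjusted p values are from limma.

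The mature sequences that carry the comparison are given 5′ to 3′ from RefSeq (GRCh38.p14), with the seed in capitals. The first set shows miRNAs with strongly restricted or high abundance in ES-2.
miR-142-3p: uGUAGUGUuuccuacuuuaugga
miR-142-5p: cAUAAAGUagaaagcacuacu
miR-708-5p: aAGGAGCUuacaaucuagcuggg
miR-3689a-5p: uGUGAUAUcaugguuccuggga
miR-3689f: uGUGAUAUcgugcuuccuggga
miR-155-5p: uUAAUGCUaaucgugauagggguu
miR-10a-5p: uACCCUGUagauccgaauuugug
miR-29a-3p: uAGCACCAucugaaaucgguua
miR-222-3p: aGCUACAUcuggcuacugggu
miR-221-3p: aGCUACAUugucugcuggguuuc
The second set shows paralogs with a common seed, of which 1 was higher and another lower or inconsistent in ES-2.
miR-100-5p: aACCCGUAgauccgaacuugug
miR-99a-5p: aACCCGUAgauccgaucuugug
miR-99b-5p: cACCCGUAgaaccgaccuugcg
miR-125b-5p: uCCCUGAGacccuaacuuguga
miR-125a-5p: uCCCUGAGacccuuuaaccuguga
let-7a-5p: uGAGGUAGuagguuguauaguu
let-7c-5p: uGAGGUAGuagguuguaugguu
let-7g-5p: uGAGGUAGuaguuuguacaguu
let-7e-5p: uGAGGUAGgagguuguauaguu
The third set shows miRNAs that were low in ES-2, with the paralogs of miR-23b and miR-27b.
miR-23b-3p: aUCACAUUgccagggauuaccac
miR-23a-3p: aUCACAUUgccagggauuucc
miR-27b-3p: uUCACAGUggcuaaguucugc
miR-27a-3p: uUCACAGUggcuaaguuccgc
miR-143-3p: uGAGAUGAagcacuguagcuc
miR-145-5p: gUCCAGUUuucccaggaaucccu
miR-193b-3p: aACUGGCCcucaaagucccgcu
miR-365a-3p: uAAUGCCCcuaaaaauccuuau
The compared parts of miR-23a-3p and miR-23b-3p, and of miR-27a-3p and miR-27b-3p, differed in 1 of 21 bases. miR-99a-5p differed from miR-100-5p in 1 of 22 bases and miR-99b-5p in 4 of 22. miR-125a-5p and miR-125b-5p differed in 7 of 22 bases when compared position by position from the 5′ end. How the authors treated reads that align to several places was not given in the sources used here, so values of such near-identical copies are less certain than those of miRNAs with a sequence of their own.

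Against the mean of the other lines, 237 of 528 miRNAs (44.9%) differed in ES-2 at an adjusted p below 0.01 in limma, with 104 higher (19.7%) and 133 lower (25.2%). The balance of directions depended on the fit, with 104 higher and 75 lower by edgeR on recovered reads and 81 higher and 168 lower by limma with library size only. The lower calls that edgeR lost included miR-1269a, miR-34a-5p and miR-885-5p, each with 0 reads in at least 1 other line. Their edgeR log2 fold changes were -5.57, -2.94 and -6.93, with an adjusted p of 0.9997 in edgeR. Fewer lower calls there thus need not mean smaller differences, and the reason was not tested. In pairs, 136 miRNAs (25.8%) differed from MV-3, with 75 higher (14.2%) and 61 lower (11.6%) in ES-2. For Huh-7 the count was 260 (49.2%), with 114 higher (21.6%) and 146 lower (27.7%), and for A-549 it was 218 (41.3%), split into 17.6% higher and 23.7% lower. The requirement of a call in each pair left 35 miRNAs higher (6.63%) and 21 lower (3.98%) in ES-2 than in every other line. Without any test, both ES-2 libraries lay above the 6 other libraries for 71 miRNAs (13.4%) and below them for 55 (10.4%). The line nearest to ES-2 was MV-3 for 19, A-549 for 10 and Huh-7 for 6 of the 35 higher miRNAs. The 19 include 5 miRNAs with 0 reads in all other libraries, for which the 3 lines were tied and MV-3 was entered by order. Among the 21 lower miRNAs it was MV-3 for 9, Huh-7 for 9 and A-549 for 3. The difference to the nearest line had a median of 1.30 on the log2 scale for the higher miRNAs and was at least 1 for 24 of them. For the lower miRNAs its median size was 2.49, and it was at least 1 for 16. Over all tested miRNAs, the median log2 fold change of ES-2 was -0.25 against the mean of the other lines.

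**Figure D1:**
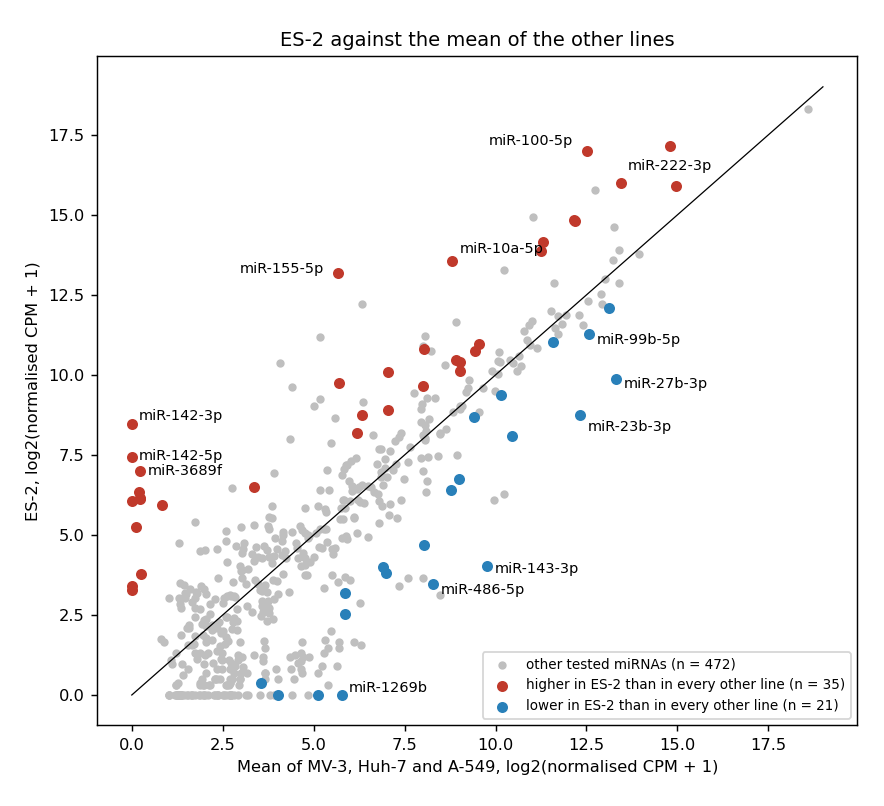
Each point is 1 of the 528 tested miRNAs, with the mean of both ES-2 libraries on the y axis and the mean of the 3 other lines, each weighted equally, on the x axis, both as log2(normalised CPM + 1); the diagonal marks equal values. The 35 miRNAs higher in ES-2 than in every other line are red and the 21 lower ones are blue, and miR-142-3p and miR-142-5p sit at 0 on the x axis.

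The lines were checked against miRNAs known from particular tissues. The epithelial list held the miR-200 family, which represses ZEB transcription factors, and miR-205-5p. Its summed level was 56.0 to 60.4 normalised CPM in ES-2 and 29.6 to 46.1 in MV-3, against 2273 to 2339 in Huh-7 cells and 1605 to 1730 in A-549. The level of miR-200b-3p was 9.02 and 6.68 in ES-2 and 12.6 and 21.4 in MV-3, while it was 1846 and 1859 in Huh-7 cells and 1305 and 1403 in A-549. miR-200a-3p was not detected in ES-2, with 0 reads in either library. Of 4 tested members of this list, 3 (miR-200a-3p, miR-200b-3p and miR-429) were lower in ES-2 than the mean of the other lines and 0 were higher by limma, and 0 were lower than every other line, where 25.2% and 3.98% of all tested miRNAs were. The level of miR-200c-3p was 45.8 and 43.1 normalised CPM in ES-2. Its log2 fold change against the mean was -0.30, with an adjusted p of 0.471. miR-141-3p, too scarce to be tested, was at 4.86 and 5.65 normalised CPM in ES-2 and at most 1.13 in the other 6 libraries. The hepatocyte miRNA miR-122-5p was at 4.17 and 29.3 normalised CPM in ES-2, and at 81224 and 86217 in Huh-7. The melanocyte list of miR-204-5p and miR-211-5p summed to 0 to 2.57 normalised CPM in ES-2 and to 1.10 to 1.48 in MV-3, so it did not mark the melanoma-derived line.

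The miRNAs most restricted to ES-2 were both arms of miR-142, a hairpin known from blood cells that lies in an exon of the lncRNA gene MIR142HG at chr17:58331245-58331267 (3p arm, minus strand). miR-142-3p was at 376 and 337 normalised CPM in ES-2 and had 0 reads in the 6 other libraries. miR-142-5p was at 177 and 165 normalised CPM and likewise had 0 reads elsewhere. Set against the 3-read floor, miR-142-3p was at least 161-fold higher in ES-2 than in MV-3, at least 348-fold higher than in Huh-7 and at least 145-fold higher than in A-549. The bounds for miR-142-5p were 77.1-fold, 167-fold and 69.8-fold. Adjusted p values in the 3 pairs were at most 3.37e-06 for either arm in limma. In RNA of a whole culture, a few cells with much miR-142 cannot be told apart from many cells with little. The other blood cell miRNAs did not move with miR-142. miR-223-3p and miR-144-3p had 0 reads in ES-2, miR-451a had 1 and 0, and miR-150-5p had 2 and 0. miR-486-5p, abundant in red blood cells, was lower in ES-2 than in every other line. Of the 7 miRNAs on the blood cell list, 3 were tested, and 2 were higher and 1 was lower than in every other line, where 6.63% and 3.98% of all tested miRNAs were. The 2 higher ones are the arms of 1 hairpin, miR-142. The blood cell list summed to 519 to 562 normalised CPM in ES-2, 114 to 116 in MV-3 cells, 780 to 789 in Huh-7 cells and 316 to 358 in A-549.

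miR-708 and the miR-3689 family were also close to absent outside ES-2. miR-708, from an intron of TENM4 on chromosome 11 (chr11:79402077-79402099, 5p arm), was at 87.5 and 73.4 normalised CPM for the 5p arm and 48.6 and 28.8 for the 3p arm in ES-2. In the other 6 libraries neither arm had more than 1 read. The difference of miR-708-5p was 6.34 ± 0.33 against MV-3 (adjusted p = 2.50e-05, limma) and 6.13 ± 0.33 against Huh-7. A set of 4 miR-3689 names, miR-3689a-5p, miR-3689b-5p, miR-3689e and miR-3689f, come from hairpins within a stretch of chromosome 9 that starts at 134849534. miR-3689a-5p, miR-3689b-5p and miR-3689e have an identical mature sequence, and miR-3689f differs from it in 2 of 22 bases, so the 4 values are not separate measurements. Their sum was 331 ± 2.28 normalised CPM in ES-2 (mean ± SD, n = 2), 2.21 ± 0.0181 in MV-3 cells and 0 in Huh-7 and A-549. By name, miR-3689f was at 127 and 124, miR-3689b-5p at 64.6 and 67.3, miR-3689a-5p at 75.0 and 66.8 and miR-3689e at 62.5 and 74.0 normalised CPM in ES-2.

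miR-199b-5p and 3 scarce miRNAs completed the miRNAs restricted to ES-2. miR-199b-5p, of a family known from mesenchymal cells, was at 46.5 and 77.0 normalised CPM in ES-2 and 5.07 and 4.10 in Huh-7, with 0 reads in MV-3 and A-549. It was at least 27.8-fold higher than in MV-3 and at least 25.2-fold higher than in A-549. Other names of this family were far more abundant and not restricted to ES-2. Reads named miR-199b-3p were at 2289 and 2362 normalised CPM in ES-2 and 3671 and 3382 in MV-3. The paralog miR-199a-5p was at 761 and 801 in ES-2 and 1073 and 1198 in MV-3. miR-199a-3p was at 4664 and 4799 in ES-2 and 7621 and 6868 in MV-3, and the log2 fold change of -0.61 between these lines did not pass the test. miR-676-3p (EDA intron), miR-592 (GRM8 intron) and miR-6720-3p were at 6.25 and 14.4, 8.33 and 9.24 and 7.64 and 21.1 normalised CPM in ES-2. miR-676-3p and miR-592 had 0 reads in the other lines, and miR-6720-3p was at 1.85 and 0 normalised CPM in A-549. These 3 calls were lost with edgeR and with DESeq2 on the recovered reads and without ES-2 replicate 2, and that of miR-6720-3p without any library but A-549 replicate 1 (adjusted p up to 0.0386 in limma).

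**Figure D2:**
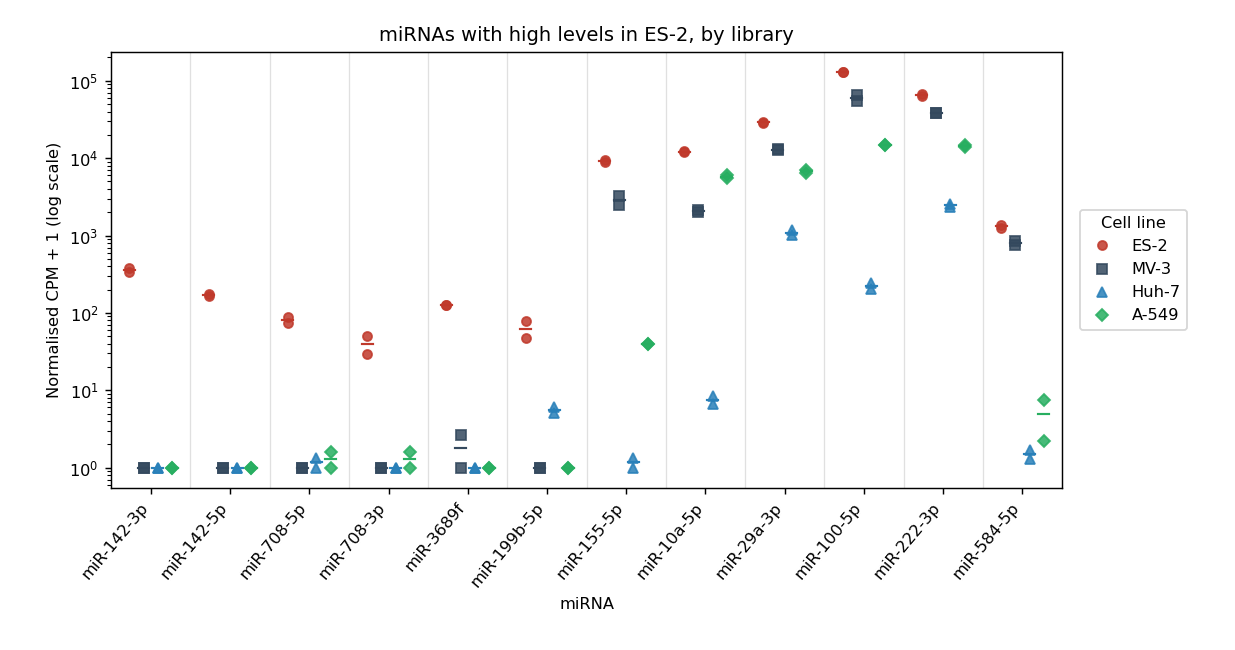
Normalised CPM + 1 (log axis) of 12 miRNAs that were high in ES-2, with a point for each of the 2 libraries per line and a short bar at their mean. The ES-2 points lie above those of the other lines, with 0 reads elsewhere (plotted at 1) for miR-142-3p and miR-142-5p, whereas miR-584-5p in MV-3 comes close to ES-2 and was not called in that pair.

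miR-155-5p, processed from the lncRNA transcript MIR155HG on chromosome 21 and known for its role in activated lymphocytes, was abundant in ES-2. Its level was 9019 and 9480 normalised CPM in ES-2, 2461 and 3221 in MV-3 cells and 38.2 and 38.4 in A-549, and 0 and 1 reads were counted in Huh-7. The difference was 1.72 ± 0.19 against MV-3 (adjusted p = 0.000604, limma) and 7.88 ± 0.19 against A-549. Of the related inflammatory miRNAs miR-146a-5p and miR-146b-5p, neither was higher in ES-2 than in every other line. miR-155-5p lost its call against MV-3 with a pseudocount of 0.1 (adjusted p = 0.105, limma) and without ES-2 replicate 1 (adjusted p = 0.0105).

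Of the 4 miRNAs used as markers of ES-2, 3 were higher than in every other line, namely miR-155-5p, miR-100-5p and miR-222-3p, where 6.63% of all tested miRNAs were. The markers were chosen with earlier results of these data known, so this count is a description and no independent check of the line. The exception was miR-584-5p, from an intron of SH3TC2, at 1260 and 1376 normalised CPM in ES-2, 856 and 762 in MV-3 cells, 0.282 and 0.683 in Huh-7 cells and 1.23 and 6.54 in A-549. ES-2 libraries were above both MV-3 libraries, but the difference of 0.70 ± 0.54 had an adjusted p of 0.381 in limma. The pair passed with DESeq2 on recovered reads (adjusted p = 0.000165) and not with edgeR (adjusted p = 0.0230).

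The cluster of miR-100, let-7a-2 and miR-125b-1 in introns of the lncRNA gene MIR100HG on chromosome 11 was high in ES-2, while its paralog on chromosome 19 was low. miR-100-5p, at chr11:122152275-122152296 on the minus strand, was at 128780 and 130530 normalised CPM in ES-2, 65419 and 54893 in MV-3 cells, 14906 and 14608 in A-549 cells and 244 and 203 in Huh-7. The 4 lines did not overlap, and the difference ranged from 1.11 ± 0.11 against MV-3 (adjusted p = 0.000440, limma) to 9.18 ± 0.11 against Huh-7. miR-125b-5p was at 15286 and 14644 in ES-2 and 8750 and 7403 in MV-3, a difference of 0.89 ± 0.11 (adjusted p = 0.000966), and its call was lost without either ES-2 library (up to 0.0170). The 3p arms of this cluster separated ES-2 from Huh-7 and A-549 and not from MV-3. For miR-125b-1-3p, which belongs to the chromosome 11 copy alone, the level was 557 and 651 in ES-2 and 583 and 680 in MV-3, and the log2 fold change of -0.06 did not pass the test. miR-100-3p was at 91.6 and 85.3 in ES-2 and 62.2 and 69.7 in MV-3. The mature miR-125b-5p can also come from chromosome 21, and mature let-7a-5p from chromosomes 9 and 22.

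The paralogous cluster in SPACA6 introns on chromosome 19 (chr19:51692618-51692639 for miR-99b-5p) showed the opposite direction. miR-99b-5p was at 2460 and 2458 normalised CPM in ES-2, 4966 and 4504 in Huh-7 cells, 6033 and 6163 in MV-3 cells and 8153 and 7447 in A-549. miR-125a-5p was at 4399 and 4401 in ES-2, 6598 and 6321 in Huh-7 cells, 7803 and 7575 in MV-3 cells and 13931 and 13624 in A-549. The differences to the nearest line, Huh-7 in either case, were -0.94 ± 0.07 (adjusted p = 4.54e-05, limma) and -0.55 ± 0.05 (adjusted p = 9.37e-05). Its let-7e-5p was not consistent in direction, with -0.76 ± 0.12 against MV-3, -1.53 ± 0.12 against A-549 and 1.17 ± 0.12 against Huh-7. At the third copy, in MIR99AHG on chromosome 21, let-7c-5p was higher in ES-2 than in every other line, while miR-99a-5p was higher than in MV-3 and A-549 and lower than in Huh-7. Thus the seeds ACCCGUA, of miR-99 and miR-100, and CCCUGAG, of miR-125, each had 1 miRNA higher and 1 lower than in every other line. Summed over each seed, the miR-99/100 seed stood at 133020 ± 1220 normalised CPM in ES-2 (mean ± SD, n = 2), against 66677 ± 7406 in MV-3 cells, 22834 ± 696 in A-549 cells and 6977 ± 491 in Huh-7. The miR-125 seed stood at 19365 ± 453 in ES-2, 15765 ± 1113 in MV-3 cells, 16055 ± 142 in A-549 cells and 7242 ± 288 in Huh-7.

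**Figure D3:**
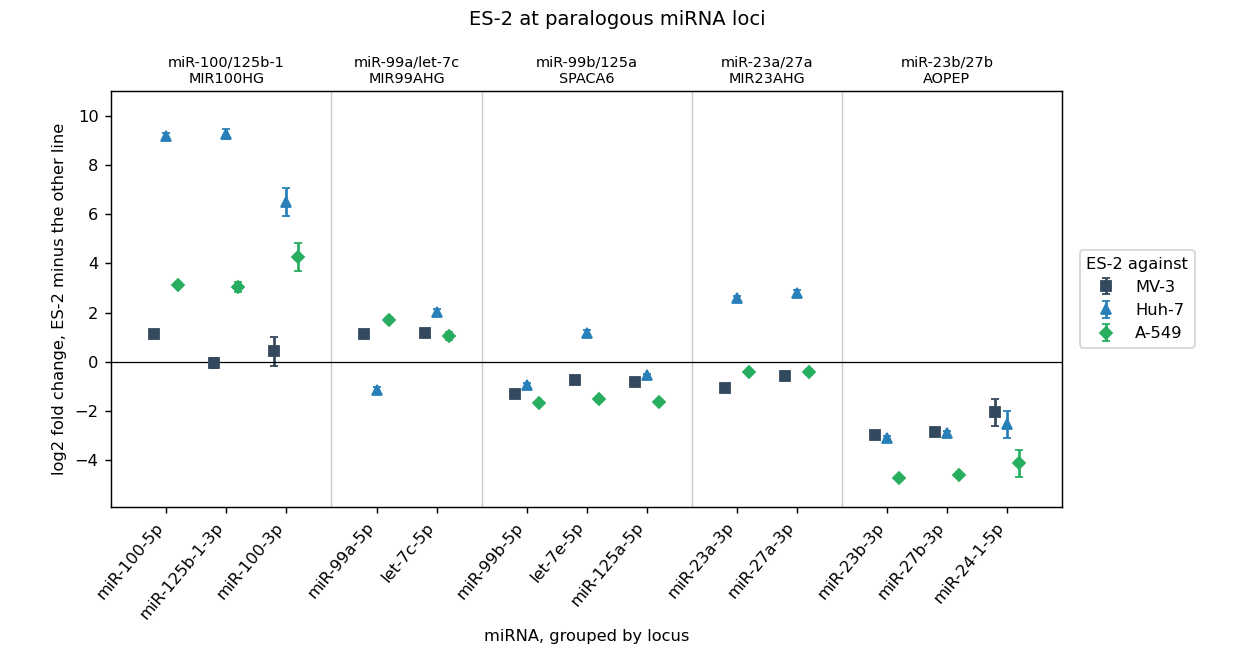
Log2 fold change of ES-2 against MV-3, Huh-7 and A-549 (y axis, error bars are SE of the limma fit, which pools the spread over the 8 libraries) for miRNAs of 5 loci (x axis). The difference is positive against every line for miR-100-5p and let-7c-5p and negative against every line for miR-99b-5p, miR-125a-5p, miR-23b-3p and miR-27b-3p.

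Of the 9 let-7-5p family miRNAs, repressors of growth-promoting mRNAs such as that of HMGA2, 3 were higher in ES-2 than in every other line. let-7a-5p was at 137880 and 150470 normalised CPM in ES-2, 87714 and 93415 in MV-3 cells, 73867 and 87030 in A-549 cells and 2987 and 3341 in Huh-7. let-7g-5p, from a WDR82 intron, was at 17715 and 18406 in ES-2, 8995 and 10385 in A-549 cells, 7356 and 7597 in MV-3 cells and 227 and 211 in Huh-7. let-7c-5p was the least abundant of the 3, at 1938 and 2048 in ES-2, and its difference to A-549, the nearest line, was 1.04 ± 0.15 (adjusted p = 0.00121, limma). Against the mean of the other lines, 8 of the 9 were higher and 0 lower, against 19.7% and 25.2% of all tested miRNAs, and the median log2 fold change was 2.54, against -0.25. This median mostly reflects Huh-7, against which it was 6.36, with 9 of the 9 higher (21.6% of all tested miRNAs). It was 0.77 against MV-3 and -0.19 against A-549. In each of these pairs 4 were higher and 1, let-7e-5p, was lower. The shares of all tested miRNAs were 14.2% and 11.6% for MV-3 and 17.6% and 23.7% for A-549. Against A-549, the log2 fold changes of miR-98-5p (-0.25), let-7i-5p (-0.19), let-7f-5p (-0.23) and let-7b-5p (-0.30) did not pass the test. The summed level of the 9 was 231480 to 249610 normalised CPM in ES-2, 145170 to 153400 in MV-3 cells, 173520 to 204880 in A-549 cells and 8481 to 8979 in Huh-7. The let-7a-5p call was lost without either library of ES-2, MV-3 or Huh-7 (adjusted p up to 0.0256 in limma) and with library size only, where the difference to MV-3 was 0.23 (adjusted p = 0.125). The let-7c-5p call was lost without either library of ES-2 or MV-3 (up to 0.0153).

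The cluster of miR-221 and miR-222 on the X chromosome, whose products repress the cell cycle inhibitor p27, was high in ES-2. miR-222-3p was at 63999 and 67794 normalised CPM in ES-2, 38795 and 38673 in MV-3 cells, 14138 and 14937 in A-549 cells and 2526 and 2360 in Huh-7. miR-221-3p, which shares its seed, was at 28091 and 29319 in ES-2 and 17780 and 14497 in MV-3. The differences to MV-3 were modest, at 0.77 ± 0.06 (adjusted p = 0.000129, limma) and 0.84 ± 0.10 (adjusted p = 0.000867). miR-221-5p was also higher than in every other line, at 1908 and 1707 in ES-2, and miR-222-5p was not called against MV-3 (1.07 ± 0.44, adjusted p = 0.114). Of the 4 arms, 3 were thus higher than in every other line, and 4 of 4 were higher than the mean of the other lines, with a median of 2.70, where 6.63% and 19.7% of all tested miRNAs were. The miR-221-3p call was lost without either ES-2 library (adjusted p up to 0.0124 in limma), and that of miR-221-5p without either library of ES-2, MV-3 or Huh-7 (up to 0.0411). Together the 4 arms summed to 94128 to 98935 normalised CPM in ES-2, 54097 to 57359 in MV-3 cells, 21263 to 22288 in A-549 cells and 3323 to 3549 in Huh-7.

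The miR-29a/29b-1 hairpins in LINC-PINT on chromosome 7 were high as well. miR-29a-3p, a repressor of collagen mRNAs, was at 29599 and 28794 normalised CPM in ES-2, 12974 and 12776 in MV-3 cells, 7101 and 6343 in A-549 cells and 1182 and 1002 in Huh-7. The difference to MV-3 was 1.18 ± 0.09 (adjusted p = 0.000136, limma). miR-29b-1-5p was at 986 and 1180 in ES-2 and 312 and 359 in MV-3, and its call was lost without either library of ES-2, MV-3 or A-549 (adjusted p up to 0.0459 in limma). miR-29b-3p had a like difference to MV-3 (1.08 ± 0.40) that did not pass the test (adjusted p = 0.0865). miR-29c-3p was at 30.5 and 35.4 in ES-2, close to 31.4 and 33.5 in A-549.

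Among miRNAs of the HOX gene clusters, miR-10a was high and miR-196a low in ES-2. miR-10a-5p, from a hairpin in HOXB3 on chromosome 17, was at 11859 and 12253 normalised CPM in ES-2, 5508 and 6040 in A-549 cells, 2126 and 2020 in MV-3 cells and 5.63 and 7.51 in Huh-7. Its difference to A-549 was 1.06 ± 0.12 (adjusted p = 0.000505, limma), and miR-10a-3p followed at 84.0 and 95.5 in ES-2, 35.1 and 31.1 in A-549 cells and 0 reads in Huh-7. Without A-549 replicate 1, the adjusted p of miR-10a-5p against A-549 was 0.0103. The miR-10a-3p call was less stable and was lost with RLE size factors, library size only and a pseudocount of 0.1, and without either library of ES-2, MV-3 or A-549 (adjusted p up to 0.0336 in limma). miR-196a-5p, which lies in HOXB7 on chromosome 17 and near HOXC6 on chromosome 12, was at 242 and 310 in ES-2, 646 and 607 in A-549 cells, 755 and 925 in MV-3 cells and 5005 and 5330 in Huh-7. Its difference to A-549 was -1.19 ± 0.15 (adjusted p = 0.000635, limma), and this call was lost without either A-549 library (adjusted p = 0.0124 without replicate 1 and 0.0101 without replicate 2). miR-10b-5p was at 2922 and 3057 in ES-2 and 2404 and 2454 in MV-3 and was not called between them.

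Of the miRNAs in the miR-17-92 transcript MIR17HG on chromosome 13, known as an oncogenic miRNA cluster, 4 were higher in ES-2 than in every other line, by small margins. Mature miR-92a-3p can also come from a hairpin on the X chromosome. miR-92a-3p was at 60629 and 63106 normalised CPM in ES-2, 45110 and 42562 in Huh-7 cells, 33575 and 35421 in MV-3 cells and 21203 and 21239 in A-549. miR-20a-5p was at 1739 and 1730 in ES-2 and 1022 and 917 in Huh-7, and miR-17-5p at 1168 and 1079 and 848 and 832. miR-92a-1-5p was at 439 and 524 in ES-2 and 208 and 206 in Huh-7, the largest margin of the 4. Of the 6 main strands on the list, 3 were higher than every other line, and miR-18a-5p, miR-19a-3p and miR-19b-3p were not called against Huh-7. Against the mean of the other lines, 5 of the 6 were higher and 0 lower, with a median of 1.10, against 19.7%, 25.2% and -0.25 for all tested miRNAs. The miR-17-5p call was lost with edgeR, with no filter and without either library of ES-2, MV-3 or Huh-7 (adjusted p up to 0.0561 in limma). Scaled by library size without TMM factors, miR-92a-3p, miR-20a-5p and miR-17-5p were lower in ES-2 than in Huh-7, with log2 fold changes of -0.46, -0.12 and -0.54.

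The other 6 miRNAs higher in ES-2 came from separate loci, apart from the neighbours miR-503-5p and miR-424-3p. miR-378a-3p, from a PPARGC1B intron, was at 800 and 797 normalised CPM in ES-2 and 338 and 311 in MV-3, the nearest line (1.30 ± 0.11, adjusted p = 0.000221, limma). miR-625-3p, from a FUT8 intron, was at 419 and 447 in ES-2 and 157 and 190 in MV-3. miR-671-5p, from an exon of CHPF2, was at 314 and 267 in ES-2 and 87.3 and 99.7 in Huh-7. miR-361-5p, from a CHM intron, was at 830 and 896 in ES-2, 435 and 477 in A-549 cells and 264 and 269 in MV-3, and had 0 and 1 reads in Huh-7. miR-503-5p and miR-424-3p, neighbours on the X chromosome, were at 1386 and 1319 and 1350 and 1465 in ES-2, against 1019 and 870 and 1084 and 1054 in A-549. Their differences to A-549, 0.52 ± 0.11 and 0.40 ± 0.09, were among the smallest of the higher miRNAs. Both calls were lost without any 1 of the 8 libraries (adjusted p up to 0.0512 for miR-503-5p and 0.0600 for miR-424-3p in limma) and with no filter, and that of miR-424-3p also with edgeR, DESeq2 and RLE size factors. miR-361-5p lost its call with a pseudocount of 0.1, with no filter and without either library of ES-2, MV-3 or A-549 (up to 0.0354), and miR-671-5p without ES-2 replicate 1 or Huh-7 replicate 1 (up to 0.0136).

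miRNAs of the miR-23b/27b hairpins in an AOPEP intron on chromosome 9 (chr9:95085265-95085287 for miR-23b-3p) were low in ES-2. Their paralogs on chromosome 19 were not lower than in every other line. miR-27b-3p was at 890 and 993 normalised CPM in ES-2, 6738 and 6683 in MV-3 cells, 7299 and 6807 in Huh-7 cells and 23684 and 22001 in A-549. miR-23b-3p was at 411 and 442 in ES-2, 3491 and 3220 in MV-3 cells, 3730 and 3485 in Huh-7 cells and 11563 and 11081 in A-549. The differences to MV-3 were -2.83 ± 0.08 (adjusted p = 2.58e-06, limma) and -2.97 ± 0.07 (adjusted p = 2.30e-06). The passenger arms were low in the same libraries, with miR-27b-5p at 23.6 and 25.7 and miR-23b-5p at 2.08 and 9.76 normalised CPM in ES-2. The miR-23b-5p call was lost with RLE size factors, a pseudocount of 0.1 and no filter, and without either library of MV-3, Huh-7 or A-549 (adjusted p up to 0.0754 in limma). The third hairpin of the cluster gives miR-24-1-5p, which had 0 reads in ES-2 and 16.6 and 16.4 normalised CPM in A-549, and was not called against MV-3 (adjusted p = 0.0303). By contrast, miR-23a-3p was at 12079 and 12717 in ES-2, 27619 and 24810 in MV-3 cells, 2237 and 1881 in Huh-7 cells and 16920 and 16202 in A-549. miR-27a-3p was at 2744 and 2570 in ES-2, 3731 and 4217 in MV-3 cells, 394 and 380 in Huh-7 cells and 3946 and 3119 in A-549. Both exceeded their Huh-7 levels, and their differences to MV-3 and A-549 lay between -1.08 and -0.40. Of these negative differences, limma called only that of miR-23a-3p to MV-3. Scaling by library size turned the A-549 differences of miR-23a-3p and miR-27a-3p positive (0.0949 and 0.11).

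The miR-143/145 cluster in the lncRNA gene CARMN on chromosome 5, known from smooth muscle and other mesenchymal cells, was close to absent in ES-2. miR-143-3p was at 9.02 and 25.2 normalised CPM in ES-2, 244 and 258 in Huh-7 cells, 1057 and 1018 in MV-3 cells and 2506 and 2617 in A-549, with no overlap between ES-2 and the other lines. The difference to the nearest line, Huh-7, was -3.96 ± 0.40 (adjusted p = 0.000186, limma). miR-145-5p had 0 reads in ES-2 and 6.66 and 15.9, 12.7 and 14.0 and 19.1 and 31.9 normalised CPM in MV-3, Huh-7 and A-549. Its level in ES-2 was at least 5.42-fold lower than in MV-3. miR-145-3p had 1 and 0 reads in ES-2. The 2 other miRNAs on the stromal and muscle list, miR-1-3p and miR-133a-3p, had at most 3 reads in an ES-2 library. miR-145-5p lost its call without 5 of the 8 libraries, and miR-145-3p without any 1 of the 8. The miR-145-3p call was also lost with DESeq2 (adjusted p = 0.0159 against MV-3), with a pseudocount of 0.1 and with a replicate block.

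miR-486 and miR-1269b were also low. miR-486-5p was at 6.25 and 15.9 normalised CPM in ES-2, 114 and 116 in MV-3 cells, 358 and 313 in A-549 cells and 779 and 788 in Huh-7, and its difference to MV-3 was -3.39 ± 0.37 (adjusted p = 0.000570, limma). miR-486-3p had 0 reads in ES-2 and 15.5 and 25.2 normalised CPM in MV-3, and was at least 9.79-fold lower in ES-2. miR-1269b had 0 reads in ES-2, 11.8 and 6.04 normalised CPM in MV-3 cells, 45.5 and 45.8 in A-549 cells and 384 and 349 in Huh-7. miR-1269a, with the same seed, was listed at 0 in ES-2 replicate 1 and at 1 read in replicate 2, but A-549 also had none.

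**Figure D4:**
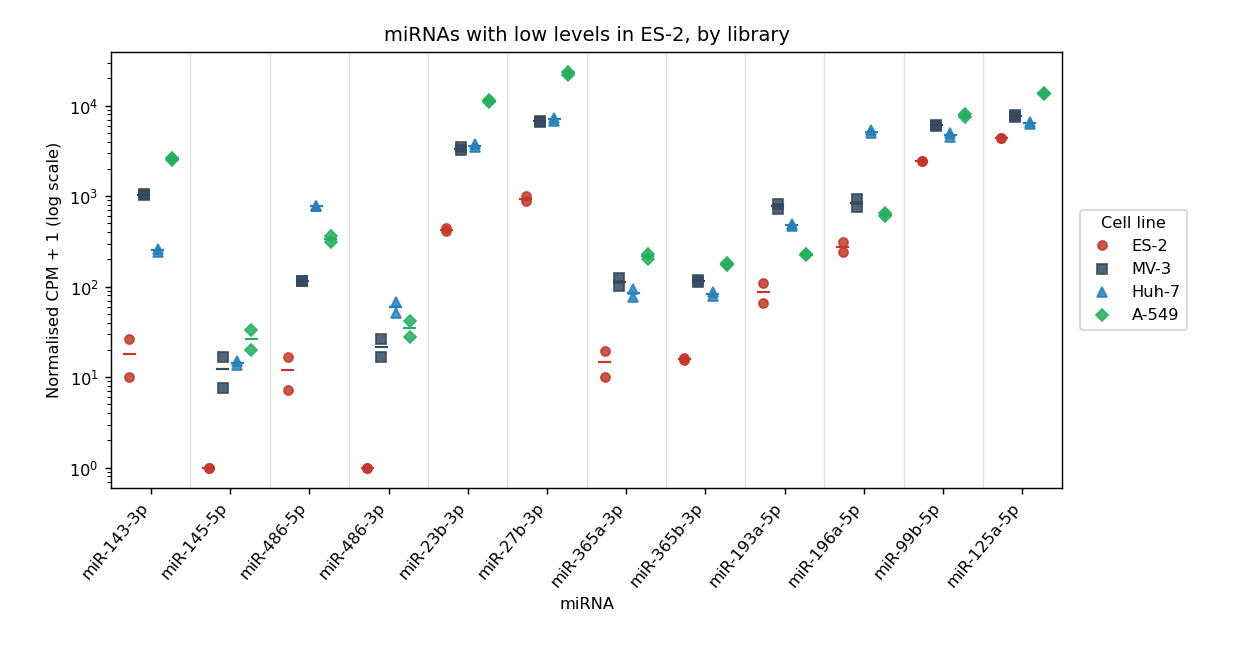
Normalised CPM + 1 (log axis) of 12 miRNAs that were low in ES-2, with a point for each of the 2 libraries per line and a short bar at their mean. ES-2 has the lowest points for each of the 12, at 0 reads (plotted at 1) for miR-145-5p and miR-486-3p, and the gap is narrow for miR-196a-5p, miR-99b-5p and miR-125a-5p.

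Several miRNAs of the miR-193 and miR-365 hairpins on chromosomes 16 and 17 were low in ES-2. miR-365a-3p (chromosome 16, MIR193BHG intron) and miR-365b-3p (chromosome 17, MIR365BHG intron) have the same mature sequence, so the split of their reads is uncertain, and their sum was 28.7 ± 7.28 normalised CPM in ES-2 (mean ± SD, n = 2), 228 ± 20.4 in MV-3 cells, 167 ± 16.7 in Huh-7 cells and 391.8 ± 11.7 in A-549. miR-193b-3p was at 9.72 and 6.68 in ES-2, 22.9 and 35.7 in MV-3 cells, 32.1 and 28.7 in Huh-7 cells and 244 and 177 in A-549. miR-193a-5p was at 65.3 and 108 in ES-2 and 228.4 and 222.4 in A-549, the nearest line (-1.41 ± 0.23, adjusted p = 0.00219, limma). Of the 4 tested miRNAs of the list, 3 were lower than in every other line, where 3.98% of all tested miRNAs were. On chromosome 16, miR-193b-5p had a log2 fold change of -2.14 against the mean of the other lines and was not called against Huh-7 (adjusted p = 0.0363, limma). miR-365a-5p of the same locus was called against A-549 and neither against MV-3 (0.23, adjusted p = 0.808) nor against Huh-7 (-0.51, adjusted p = 0.448). The miR-193b-3p call was lost without any 1 of the 8 libraries (up to 0.0418) and with no filter, that of miR-193a-5p without either library of Huh-7 or A-549 (up to 0.0268), and that of miR-365a-3p without Huh-7 replicate 1 (0.0129).

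The remaining 4 lower miRNAs came from separate loci. miR-181a-2-3p, the passenger arm of a miR-181a hairpin, was at 115 and 100 normalised CPM in ES-2 and 209 and 227 in Huh-7, the nearest line. miR-28-5p was at 415 and 405 in ES-2 and 573 and 579 in A-549. miR-22-3p was at 673 and 653 in ES-2 and 860 and 845 in Huh-7. miR-183-5p was at 2037 and 2167 in ES-2 and 2625 and 2773 in MV-3. Other arms and neighbours of these loci did not follow in every pair. miR-182-5p was lower than in Huh-7 and A-549 and not called against MV-3 (-0.17, adjusted p = 0.270, limma), and miR-96-5p was not called there either (0.42, adjusted p = 0.506). miR-181a-5p was higher than in MV-3 (0.96, adjusted p = 0.000722), and miR-22-5p did not differ from Huh-7 (0.06, adjusted p = 0.874). For miR-28-5p, library size scaling gave a log2 fold change of 0.0216 against A-549, in the other direction, and miR-183-5p and miR-193a-5p lost their calls under it. The miR-22-3p call was lost with DESeq2 (-0.23, adjusted p = 0.0864), RLE size factors (-0.23, adjusted p = 0.0431) and no filter, and without either library of ES-2, Huh-7 or A-549 (up to 0.0286 in limma). miR-183-5p lost its call with no filter and without either library of ES-2, MV-3 or A-549 (up to 0.0295), and miR-28-5p with no filter and without 5 of the 8 libraries, both of ES-2, both of A-549 and MV-3 replicate 1 (up to 0.0156).

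Of the 56 miRNAs, 51 were placed on RefSeq hairpins, 33 of the higher and 18 of the lower. The placed miRNAs had 41 seeds, and 2 of these seeds had miRNAs in both directions. In a library of ES-2, the 35 higher miRNAs took 45.3% ± 0.680 of miRNA reads (mean ± SD, n = 2), against 32.4% ± 0.0492 in MV-3 cells, 9.40% ± 0.0715 in Huh-7 cells and 10.1% ± 0.477 in A-549. The 21 lower miRNAs took 1.03% ± 0.00759 in ES-2, against 3.77% ± 0.0583, 5.79% ± 0.0113 and 4.03% ± 0.207 in MV-3, Huh-7 and A-549. These shares use the same libraries that chose the miRNAs and are a description.

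The most abundant miRNA of ES-2, miR-21-5p, an oncogenic miRNA, took 27.6% ± 0.836 of miRNA reads (mean ± SD, n = 2) and was not among the miRNAs that set ES-2 apart, with 325790 and 318640 normalised CPM in ES-2, 288100 and 272990 in MV-3 cells and 1068800 and 1081500 in A-549. Values above 1000000 arise because CPM were divided by the A-549 TMM factors, which are below 1. let-7a-5p took 12.4% ± 0.583, miR-100-5p 11.1% ± 0.0559, miR-222-3p 5.65% ± 0.148, miR-92a-3p 5.30% ± 0.0728 and miR-30a-5p 4.81% ± 0.114. The 10 most abundant miRNAs held 76.6% ± 0.218 of ES-2 reads, and 6 of them were higher in ES-2 than in every other line. miR-30a-5p, with 56441 and 55718 normalised CPM in ES-2 and 49594 and 47769 in A-549, was not called between these lines.

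The threshold of 0.01 separated miRNAs with like values. Among higher miRNAs, miR-10a-3p and miR-424-3p lay just inside, with largest adjusted p values over the 3 pairs of 0.00809 and 0.00911 in limma, and miR-19b-3p and miR-361-3p just outside, with 0.0109 and 0.0120. Among lower miRNAs, miR-193b-3p and miR-23b-5p lay just inside (0.00769 and 0.00925), and miR-126-3p and miR-210-3p just outside (0.0111 and 0.0116).

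The choice of scaling bore on small margins. Without TMM factors, the median log2 fold change over all tested miRNAs shifted by -0.40 against MV-3, -0.88 against Huh-7 and 0.50 against A-549. Of the 35 higher miRNAs, 24 kept their call under library size scaling. The 11 that lost it were let-7a-5p, miR-10a-3p, miR-125b-5p, miR-17-5p, miR-20a-5p, miR-221-3p, miR-221-5p, miR-29b-1-5p, miR-671-5p, miR-92a-1-5p and miR-92a-3p. Of the 21 lower miRNAs, 18 kept it. The miR-17-5p, miR-20a-5p, miR-92a-3p and miR-28-5p differences that changed sign were below 1 in size. Leaving out 1 library brought the adjusted p of 15 higher and 10 lower miRNAs above the threshold in limma, with a largest value between 0.0103, for miR-10a-5p without A-549 replicate 1, and 0.0754, for miR-23b-5p without Huh-7 replicate 1. miR-592, miR-676-3p and miR-6720-3p no longer passed the filter on low counts without ES-2 replicate 2. Over 17 alternative fits, including the loss of each library, 15 higher and 11 lower miRNAs kept their call in each. The higher ones were both arms of miR-142 and miR-708, the 4 miR-3689 names, miR-199b-5p, let-7g-5p, miR-100-5p, miR-222-3p, miR-29a-3p, miR-378a-3p and miR-625-3p. The lower ones were miR-143-3p, both arms of miR-486, miR-1269b, miR-23b-3p, both arms of miR-27b, miR-365b-3p, miR-99b-5p, miR-125a-5p and miR-181a-2-3p.

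**Figure D5:**
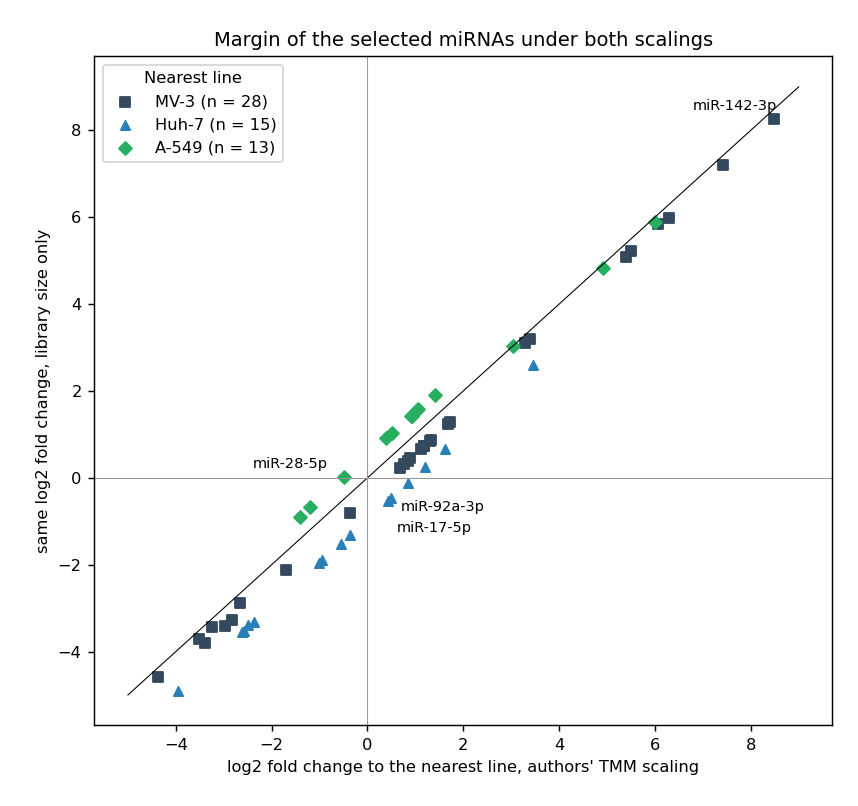
For the 56 miRNAs, the log2 fold change of ES-2 to the nearest other line with the authors' TMM scaling (x axis) and with library size only (y axis), with the line that is nearest given by colour and marker and equality by the diagonal. The 5 higher miRNAs with 0 reads in all other libraries had no single nearest line and are drawn as MV-3. Points of Huh-7 lie below the diagonal and those of A-549 above it, and miR-92a-3p, miR-17-5p and miR-28-5p are among those that crossed 0.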

How the data were processed

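Small RNA-seq libraries were made by the authors from 50 ng of total RNA of the 4 untreated lines (ES-2, MV-3, A-549 and Huh-7), 2 libraries per line and 8 in all, grouped by their labels. Per the labels and the study's methods, reads were trimmed with cutadapt 1.14, aligned to GRCh38 with Bowtie2 2.3.2, counted on miRBase 21 mature miRNAs with featureCounts 1.5.3 and scaled with edgeR 3.18.1. The authors deposited normalised signal values (CPM scaled by TMM factors), not raw counts. With a tolerance of 0.001, 100% of the deposited values were whole multiples of the value of 1 read, so that read counts were recovered. Of 2813 entries, those sharing 1 of 2588 names were summed. Reads are not molecules, so the 3-read floor covers counting error only.

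The comparison was run in limma 3.58.1 (R 4.3.3) with a mean-dependent prior on log2(normalised CPM + 1), 1 term per line over the 8 libraries, 4 residual degrees of freedom, and ES-2 against each other line and against their equally weighted mean. filterByExpr of edgeR 4.0.16 on recovered reads left 528 miRNAs, and p values were adjusted by Benjamini-Hochberg over all of them. "Higher" or "lower" than every other line required an adjusted p below 0.01 in 3 of 3 pairs. Fold changes on this scale understate those of scarce miRNAs. Alternatives were RLE size factors, library size only, a pseudocount of 0.1, no filter, a filter of 10 normalised CPM, edgeR's quasi-likelihood test and DESeq2 1.42.0 on recovered reads, the highest entry per name, a replicate block, other thresholds and the loss of each library. On simulated data with 200 of 528 miRNAs changed 4-fold in ES-2, 84.5% of the changed ones were called in every pair, with 0 wrong calls among 169. The simulation gave the 3 other lines equal means and all miRNAs the same dispersion, unlike the real libraries. It checks that the fit runs as intended and does not measure the rate of wrong calls in these data.

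The miRNAs and lists were chosen with earlier results of these data known. Named were the 4 markers, the members of both directions, the most abundant miRNAs of ES-2, members of the lists of families and tissue markers, other arms of named miRNAs, and those nearest the threshold. Sequences and hairpin positions are RefSeq's (GRCh38.p14), found for 483 of 528 tested names, and host genes are from GENCODE 44.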

Additional observations from a re-analysis of the deposited data

How the results depend on the processing

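The number of miRNAs that differed from the mean of the other lines, 237, was between 179 (edgeR, with 104 higher and 75 lower) and 325 (adjusted p below 0.05) in the fits with every library. The numbers higher and lower than every other line, 35 and 21, were between 24 and 42 and between 16 and 29. edgeR's lower calls against the mean, 75 instead of 133, fell below the main number by more than a factor of 1.5. Calls lost there include miRNAs with large fold changes and 0 reads in another line, such as miR-885-5p. With library size only, 81 miRNAs were higher and 168 lower than the mean, instead of 104 and 133. Leaving out each library in turn gave 147 to 202 miRNAs against the mean, 21 to 32 higher and 13 to 19 lower than every other line. The lowest numbers came without ES-2 replicate 1 (147 and 22 higher), without ES-2 replicate 2 (21 higher), and without A-549 replicate 1 or 2 (13 lower in either case). With a line down to 1 library, that library is assumed to vary like those of the other lines.

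With a replicate block, 243, 32 and 20 miRNAs were called. Deviations of same-numbered libraries correlated by -0.0500 to 0.232 between lines, with the largest value for ES-2 with Huh-7. Summed miRNAs of the DLK1-DIO3 cluster on chromosome 14 spread from 7.64 to 96.5 normalised CPM in ES-2 and from 22.2 to 223 in Huh-7, with replicate 2 higher. The spread was 255 to 271 in MV-3 and 14383 to 14487 in A-549. Weak correlations cannot show whether same-numbered libraries shared a preparation, which was not tested.

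The share of ES-2 reads taken by miR-100-5p was 11.1%, and 13.1% when the highest entry per name was used. The alternative without the 20 most abundant miRNAs gives no value for it. Reversed signs all came with library size only: miR-17-5p (-0.54), miR-20a-5p (-0.12), miR-92a-3p (-0.46) and miR-24-3p (-0.16) against Huh-7, and miR-23a-3p (0.0949), miR-27a-3p (0.11) and miR-28-5p (0.0216) against A-549. This scaling leaves out the TMM factors, which differed between the lines. Over 100 miRNAs and 4838 alternative values, 4541 kept direction and call, 271 lost the call, 19 gained it and 7 changed direction. Depth limits miRNAs near the floor of 0.845 to 2.45 normalised CPM, where fold changes are bounds.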

Other observations

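Other miRNA groups set ES-2 apart from some lines but not from every line. The DLK1-DIO3 imprinted cluster on chromosome 14 was abundant in A-549 and far less so in ES-2, MV-3 and Huh-7. Of 91 names of the cluster in the table, 51 had 0 reads in both ES-2 libraries. Of the 52 tested, 29 were lower than the mean of the other lines by limma and 0 higher, against 25.2% and 19.7% of all tested miRNAs. In pairs, 52 of the 52 were lower in ES-2 than in A-549, 2 than in MV-3 and 1 than in Huh-7, and 0 were lower than in every other line. Among all tested miRNAs, 23.7%, 11.6% and 27.7% were lower in these pairs and 3.98% than in every other line. The summed level of the cluster was 7.64 and 96.5 normalised CPM in the lowest and highest ES-2 library, 255 to 271 in MV-3, 22.2 to 223 in Huh-7, which overlapped ES-2, and 14383 to 14487 in A-549. The miR-34 family, induced by p53, was also scarce in ES-2, with 7.64 to 7.70 normalised CPM over 5 names, against 280 to 353 in MV-3, 152.3 to 176.5 in Huh-7 and 697 to 791 in A-549. Of these 5, 4 were called lower than in A-549, 3 than in MV-3 and 1 than in Huh-7, and 0 than in every other line. The shares among all tested miRNAs were 23.7%, 11.6%, 27.7% and 3.98%. miR-34a-5p was at 4.17 and 0.514 normalised CPM in ES-2 and had 0 reads in MV-3, and it was at 174.3 and 152.3 in Huh-7 and 435.2 and 452.2 in A-549.

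miR-192-5p and miR-194-5p, known from liver and gut epithelium, were at 75.7 and 76.5 and at 72.9 and 61.1 normalised CPM in ES-2. Both were near their MV-3 levels (log2 fold changes of -0.02 and 0.06, neither called by limma) and below Huh-7 and A-549 by 5.54 to 6.15 on the log2 scale. On the X chromosome, neighbours of miR-424 and miR-503 differed in direction. miR-424-5p, miR-424-3p and miR-503-5p were higher than the mean of the other lines by 1.68, 1.55 and 1.39, whereas miR-450a-5p, miR-450b-5p and miR-542-3p were lower, at -1.46, -1.75 and -1.76 on the log2 scale. These names were chosen from fixed families after earlier results were known, and no test of the difference between neighbours was made.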
